A study of Mus musculus with 4 samples.

Results

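The mRNAs of 34 genes for autophagy and for the lysosome were measured in the brown adipose tissue (BAT) of Tg mice after the integrated stress response was switched on by a drug. The members were 5 cargo receptor genes, 22 genes for the core machinery, the genes for the transcription factors TFEB and TFE3, and 5 lysosomal genes, chosen by name from 20145 genes with a symbol on the array. All 34 were on the array, with 50 probes, and each member's probe was well above background on all 4 arrays. Male mice of 8 weeks and of the C57/BL6N strain carried the maP2-Fv2E-PERK transgene, a PERK kinase that is fused to a dimerization domain and driven by the promoter of Fabp4 (aP2). They were injected intraperitoneally with vehicle (2 mice) or with AP20187 (AP), the dimerizer that activates the fused kinase, at a labelled dose of 1 ng/g (2 mice), and BAT was taken after 12 h. The study's text gives a different dose from the label, so the dose is uncertain. Every mouse on the arrays carried the transgene and no wild-type mouse was hybridized, so that an effect of AP apart from the kinase cannot be told apart from an effect of the kinase. The aP2 promoter drives expression in macrophages as well as in adipocytes, and in whole tissue fewer cells of a type and less RNA per cell cannot be told apart.

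Autophagy wraps a portion of cytoplasm in a double membrane and delivers it to the lysosome. The ULK1 kinase complex and the Beclin 1 lipid kinase complex start the membrane, the ATG conjugation system attaches ubiquitin-like ATG8 proteins (LC3 and GABARAP) to it, and cargo receptors bind both the cargo and ATG8. TFEB and TFE3 are transcription factors for lysosomal and autophagy genes, and the cathepsins are lysosomal proteases. In brown fat, autophagy of mitochondria is known for its part in the loss of the thermogenic state, and ATF4 and DDIT3 (CHOP), downstream of PERK, are known to drive transcription of a number of autophagy genes.

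Values per mouse are log2 signals with the 75th percentile of that array set to 0, and they follow the order vehicle mouse 1, vehicle mouse 2, AP mouse 1 and AP mouse 2. Trib3, a target of ATF4 and DDIT3 that marks the stress response, was at 2.78, 2.33, 6.26 and 8.01, so that both AP-treated mice were far above both controls. Of 6 genes of this response that were read, 5 were higher in the mean with AP, and in 4 the groups were separate. The groups overlapped for Atf4 (log2 fold change 0.94) and for Atf3, which was lower (−0.62). The brown adipocyte gene Ucp1 lay between 9.66 and 10.41 in all mice, and all 8 brown adipocyte markers were above background on all arrays. Markers of other cell types set the control mice apart from one another. The summed signal of 10 muscle markers, as a multiple of the 75th percentile, was 79.2 in vehicle mouse 1, 859 in vehicle mouse 2, 558 in AP mouse 1 and 320 in AP mouse 2, so that vehicle mouse 1 was far below all others and vehicle mouse 2 the highest. The summed signal of 10 leukocyte markers was 169 in vehicle mouse 2 against 51.2 to 60.9 in the other mice. The B cell marker Cd79a was not above background on any array. The summed signal of the 8 brown adipocyte markers was 7525, 4964, 6062 and 6953, lowest in vehicle mouse 2. Among them Elovl3, a fatty acid elongase of active brown fat, was at −1.07 in vehicle mouse 2 against 3.52 to 6.08 in the others. Not all went that way. Adipoq was highest in vehicle mouse 2 (8.44), and Ppargc1a was lowest in vehicle mouse 1 (1.26, against 2.14 in vehicle mouse 2). Most lists and several genes are therefore also given without vehicle mouse 2, and some of them without vehicle mouse 1.

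None of the 34 members passed the adjusted test. Over all 24975 probes kept, 0% passed limma's test with a Benjamini-Hochberg adjusted p under 0.05, and the smallest adjusted p was 0.80. At an unadjusted p under 0.05, which is used below to order the genes and not as a call, there were 1515 probes. On that measure 3 members were higher with AP, namely Bnip3, Sqstm1 and Gabarapl1, which is 8.82% of 34 against 3.78% of the 12791 named genes kept. No member was lower with AP on that measure, against 2.26% of the named genes. An exact two-sided permutation test of 2 against 2 mice can give no p below 0.333, so it was not used for single genes.

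Most members had a small difference in the same direction. The mean of the AP-treated mice was above that of the vehicle-treated mice for 27 of 34 members, against 51.4% of the named genes, and the median log2 fold change (AP minus vehicle) was 0.14 over the members and 0.01 over the named genes. In the authors' processed log2 values, whose scaling moves the median of all probes from −0.01 to −0.17, 16 of 34 members were above 0, while 27 of 34 were above that median. The AP-treated mice both exceeded both controls for 7 members, or 20.6%, against 20.1% of the named genes. Both lay below for 2 members, or 5.88%, against 17.3%. The share of members with separate groups on the upper side was thus close to that over the named genes, and 20 of the 27 members above 0 had overlapping groups. Vehicle mouse 2 had the lowest of the 4 values for 25 of 34 members, against 35.9% of the named genes. Without vehicle mouse 2, 17 of 34 members were above 0, against 47.8% of the named genes. The members' median was then 0.00 and that of the named genes −0.02. Without vehicle mouse 1, 30 of 34 members were above 0 and their median was 0.35, against 55.5% and 0.06 over the named genes.

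**Figure D1:**
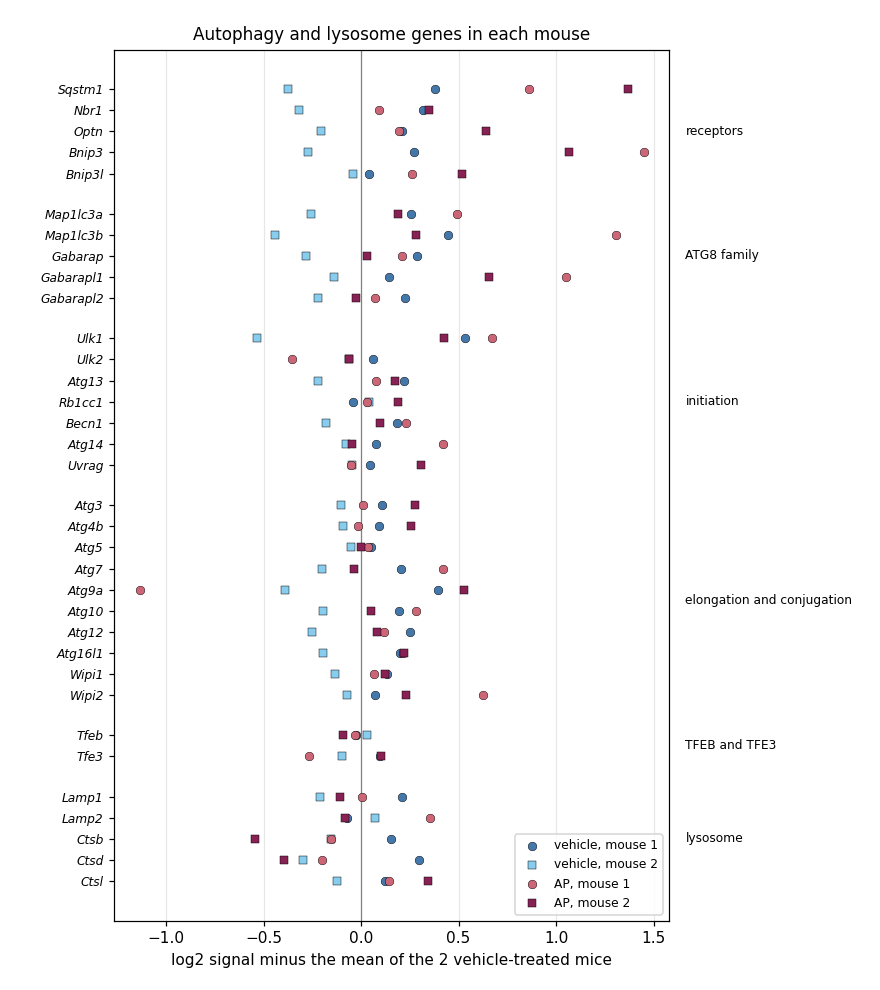
Log2 signal of each of the 34 members in each of the 4 mice, minus the mean of the 2 vehicle-treated mice, with genes in rows grouped by role. Blue points are vehicle-treated and red points AP-treated mice (circles mouse 1, squares mouse 2), and the pale blue squares of vehicle mouse 2 lie leftmost for 25 of 34 genes.

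The sequences just upstream of the transcription start are shown for the 3 members with the smallest p. Shorter stretches are given for the 2 members whose window holds the CLEAR core, part of the site that TFEB and TFE3 recognize. These stretches are short because both members had small differences. All sequences are from RefSeq (mouse build GRCm38.p6), 5′ to 3′ on the gene's strand, and 27 of 34 members had an entry. Capitals mark the core of the hypoxia response element in Bnip3 (ACGTG, read on both strands as CACGTG), a forkhead core in Gabarapl1 (TAAACA), and the CLEAR core in Atg3 and Ctsd (TCACGTGA). The motifs were chosen after the values were seen. The Bnip3 window is chr7:138909507-138909756 on the minus strand, that of Gabarapl1 is chr6:129532942-129533191 on the plus strand and that of Sqstm1 is chr11:50210821-50211070 on the minus strand, each the 250 bases before the start. The stretch of Atg3 is chr16:45158731-45158790 on the plus strand and that of Ctsd is chr7:142387893-142387952 on the minus strand.
Bnip3: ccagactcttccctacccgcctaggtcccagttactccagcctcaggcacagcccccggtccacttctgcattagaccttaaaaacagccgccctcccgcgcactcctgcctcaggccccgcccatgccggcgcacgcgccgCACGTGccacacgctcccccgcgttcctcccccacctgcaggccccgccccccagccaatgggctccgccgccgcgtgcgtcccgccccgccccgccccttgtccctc
Gabarapl1: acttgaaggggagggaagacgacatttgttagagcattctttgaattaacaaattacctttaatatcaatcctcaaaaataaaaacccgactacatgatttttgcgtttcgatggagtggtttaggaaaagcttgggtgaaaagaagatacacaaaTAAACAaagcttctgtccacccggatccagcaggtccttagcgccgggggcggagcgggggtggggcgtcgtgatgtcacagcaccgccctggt
Sqstm1: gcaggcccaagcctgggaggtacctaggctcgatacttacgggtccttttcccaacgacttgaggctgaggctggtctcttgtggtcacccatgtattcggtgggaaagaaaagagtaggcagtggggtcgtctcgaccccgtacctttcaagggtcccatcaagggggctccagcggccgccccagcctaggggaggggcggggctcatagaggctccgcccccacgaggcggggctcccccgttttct
Atg3: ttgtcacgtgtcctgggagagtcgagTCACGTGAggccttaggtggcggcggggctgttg
Ctsd: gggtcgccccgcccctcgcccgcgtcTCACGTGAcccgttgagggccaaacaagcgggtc

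Both strands of the 250 bases were searched for each motif. The ACGTG core was in the windows of 12 of 27 members, among them Bnip3 but neither Sqstm1 nor Gabarapl1, and in 16.6% of all 32851 windows. It is contained in the CLEAR core, so that Atg3 and Ctsd count for both. The TAAACA core was in 2 of 27, Gabarapl1 and Ctsl, and in 12% of all windows. The CLEAR core was in 2 of 27, Atg3 and Ctsd, and in 0.785% of all windows. A composite core of ATF4 with C/EBP (TGATGNAA) was in 1 of 27, that of Ctsl, and in 3.45% of all windows. The core of the antioxidant response element (TGACNNNGC), which NRF2 binds, was in 3 of 27, Atg13, Ctsd and Ulk2, and in 10.2% of all windows. The Sqstm1 window held none of these letters and is printed without capitals. These are matches of letters in one window per start, and the arrays do not measure binding.

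With all 4 mice, the median difference of the cargo receptors was above that of the other roles, although single core genes exceeded 3 of the 5 receptors. All 5 were higher in the mean with AP, against 51.4% of the named genes, with a median log2 fold change of 0.42. In 3 of them the groups were separate, against 20.1% of the named genes with AP higher. Vehicle mouse 2 was the lowest mouse for all 5, against 35.9% of the named genes. Bnip3 and Sqstm1 had an unadjusted p under 0.05. Without vehicle mouse 2 the median was 0.35 and 4 of 5 were above 0.

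Bnip3 encodes a mitochondrial outer membrane protein that binds LC3 and serves as a receptor for the autophagy of mitochondria. Its signal was 7.08, 6.54, 8.26 and 7.88, so the lower AP-treated mouse was above the higher vehicle-treated mouse. The log2 fold change was 1.26 (standard error 0.30, 2.39-fold, limma unadjusted p = 0.00989, adjusted p = 0.80). Its other probes gave log2 fold changes of 1.15 and 1.04, with separate groups on each. Bnip3 was the only member with an unadjusted p under 0.05 whichever mouse was left out, with log2 fold changes from 0.99 without vehicle mouse 2 to 1.53 without vehicle mouse 1. The muscle and leukocyte markers were highest in vehicle mouse 2, where Bnip3 was lowest, and the muscle markers were lowest in vehicle mouse 1. The part of muscle and of leukocytes in the Bnip3 values was not tested.

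Sqstm1 encodes p62, which binds ubiquitinated cargo and LC3 and is itself degraded by autophagy, so that its mRNA and its protein need not move together. Its signal was 3.16, 2.41, 3.65 and 4.16. The groups did not overlap, and the gap of 0.75 between the vehicle-treated mice was larger than the step of 0.48 from the higher of them to the lower AP-treated mouse. The log2 fold change was 1.11 (standard error 0.36, 2.16-fold, limma unadjusted p = 0.0306, adjusted p = 0.80). It was 0.74 without vehicle mouse 2 (limma unadjusted p = 0.109) and 0.86 without AP mouse 2 (limma unadjusted p = 0.126). Sqstm1 has 1 probe on the array.

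The other receptors had smaller differences and were described after their values were seen. Bnip3l (NIX), the paralogue of Bnip3 that clears mitochondria during red cell maturation, was at 4.22, 4.14, 4.43 and 4.69. Its groups did not overlap, with a log2 fold change of 0.39 (standard error 0.22, limma unadjusted p = 0.140). All 4 Bnip3l probes were above 0, from 0.18 to 0.44, and on 1 of them the groups overlapped. Optn, a ubiquitin-binding receptor for mitochondria and bacteria, lay between 0.69 in vehicle mouse 2 and 1.53 in AP mouse 2 (log2 fold change 0.42, standard error 0.28, and 0.21 without vehicle mouse 2), with AP mouse 1 (1.09) just under vehicle mouse 1. Nbr1, a receptor with a build like that of p62, was at 0.76, 0.12, 0.53 and 0.79 and its sign turned to −0.10 without vehicle mouse 2. In each of these 3 genes the difference was under 2 standard errors.

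**Figure D2:**
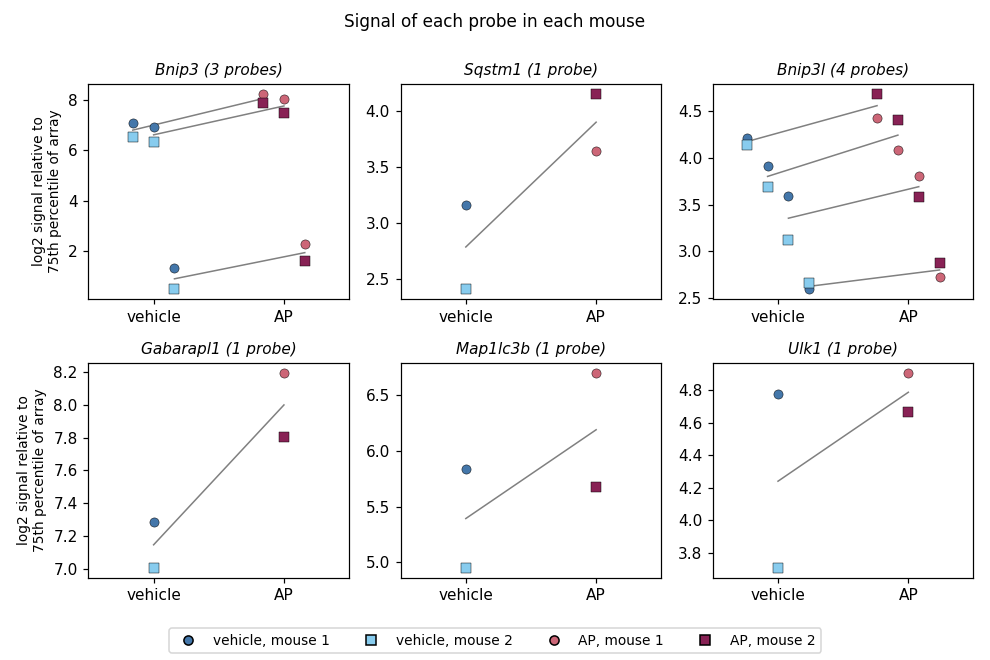
Log2 signal (0 is the array's 75th percentile) of every probe of 6 members in vehicle-treated and AP-treated mice (blue and red, 2 mice each, circles mouse 1 and squares mouse 2), with a line between the group means of each probe. The groups are separate for all 3 probes of Bnip3, for Sqstm1 and for Gabarapl1, and overlap for Map1lc3b and Ulk1.

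Among the ATG8 genes, whose proteins coat the forming membrane and dock the receptors, 1 of 5 stood out. Gabarapl1 was at 7.29, 7.01, 8.20 and 7.80, with separate groups. Its log2 fold change was 0.85 (standard error 0.25, 1.80-fold, limma unadjusted p = 0.0236, adjusted p = 0.80), and it was 0.71 without vehicle mouse 2 (limma unadjusted p = 0.0936) and 0.65 without AP mouse 1 (limma unadjusted p = 0.115). The signals of the 8 macrophage markers on the array summed to 32.8, 40.8, 24.9 and 25.3. Of the 8, 5 were highest in vehicle mouse 2, and Cd163 was not above background on any array. Itgam was highest in vehicle mouse 1 (4.21), where Csf1r, Adgre1 and Lyz2 were lowest. The part of macrophages in the Gabarapl1 values was not tested.

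Map1lc3b, which encodes the LC3B form that is used as the marker of autophagosomes, had a log2 fold change of 0.79, close to that of Gabarapl1, with a standard error of 0.49 (limma unadjusted p = 0.171). Its signal was 5.84, 4.95, 6.70 and 5.68. AP mouse 2 lay under vehicle mouse 1, each group spanned 0.89 or more, and the log2 fold change was 0.35 without vehicle mouse 2. Map1lc3a was at 5.17, 4.66, 5.41 and 5.11, again with overlap. Gabarap and Gabarapl2 had log2 fold changes of 0.12 and 0.02, and both turned negative without vehicle mouse 2 (−0.17 and −0.20). The median of the 5 genes was 0.34, and vehicle mouse 2 was the lowest mouse for each of them. Without it 3 of the 5 were above 0 and the median was 0.085.

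The 7 members from the ULK1 and Beclin 1 complexes, which start the autophagosome, had a median log2 fold change of 0.13, with 6 above 0 and 4 above 0 without vehicle mouse 2. In none of these 7 were the groups separate. Further subunits and partners of these complexes on the wider list, looked at after their values were seen, differed from one another. Atg101 (1.02), Pik3c3 (0.61), Nrbf2 (0.55) and Pik3r4 (0.25) had separate groups with AP higher. The groups overlapped on the second Pik3c3 probe (0.31). Rubcn (−0.19) had separate groups with AP lower, and Ambra1 (0.04) had overlapping groups. Ulk1, the kinase that AMPK and mTORC1 act on, had the largest value of the 7 members, 0.55 (standard error 0.41, limma unadjusted p = 0.248). Its signal was 4.77, 3.70, 4.91 and 4.67. Vehicle mouse 1 lay between the AP-treated mice, and its value was 0.01 without vehicle mouse 2 and 1.08 without vehicle mouse 1, where the limma unadjusted p was 0.022. Its paralogue Ulk2 was at −0.21, the only one of the 7 below 0. Becn1 (0.16), Atg14 (0.19) and Uvrag (0.13), subunits of the lipid kinase complexes, and Atg13 (0.12) and Rb1cc1 (0.11), partners of ULK1, lay within 1 standard error of 0.

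Among the 10 genes for the growth of the membrane and the conjugation of ATG8, 9 were above 0 with a median of 0.13, and none had an unadjusted p under 0.05. Leaving out vehicle mouse 2 put 4 of the 10 above 0, with a median of −0.02. Wipi2, which binds the lipid made by the Beclin 1 complex and recruits the conjugation machinery, was highest. Its signal was 1.88, 1.73, 2.43 and 2.04, with separate groups, a log2 fold change of 0.43 (standard error 0.24, limma unadjusted p = 0.142) and a value of 0.53 on its second probe. Atg16l1, the partner of the ATG12 and ATG5 conjugate, was also separate, at 1.19, 0.80, 1.21 and 1.21, but by 0.02 on the log2 scale over vehicle mouse 1. The genes for the E1-like enzyme Atg7 (0.19), the E2-like enzymes Atg3 (0.15) and Atg10 (0.17), the protease Atg4b (0.12), Atg12 (0.10), Wipi1 (0.09) and Atg5 (0.02) each lay within 1 standard error of 0 on their brightest probe. The second probes of Atg10 (0.38, standard error 0.25, groups separate) and Wipi1 (0.30, standard error 0.24) lay farther out.

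Atg9a, the lipid scramblase of the vesicles that seed the membrane, was at −0.83, −1.62, −2.36 and −0.69. The AP-treated mice were the lowest and the highest of the 4, and the log2 fold change of −0.30 had the largest standard error of all members, 0.64. Over all 22 core genes, 20 were above 0 and the median was 0.14, but in 17 of these 20 the groups overlapped, and 11 of 22 were above 0 without vehicle mouse 2. The median of the 22 was 0.00 without vehicle mouse 2 and 0.35 without vehicle mouse 1. That of the named genes was −0.02 and 0.06 in the same settings.

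**Figure D3:**
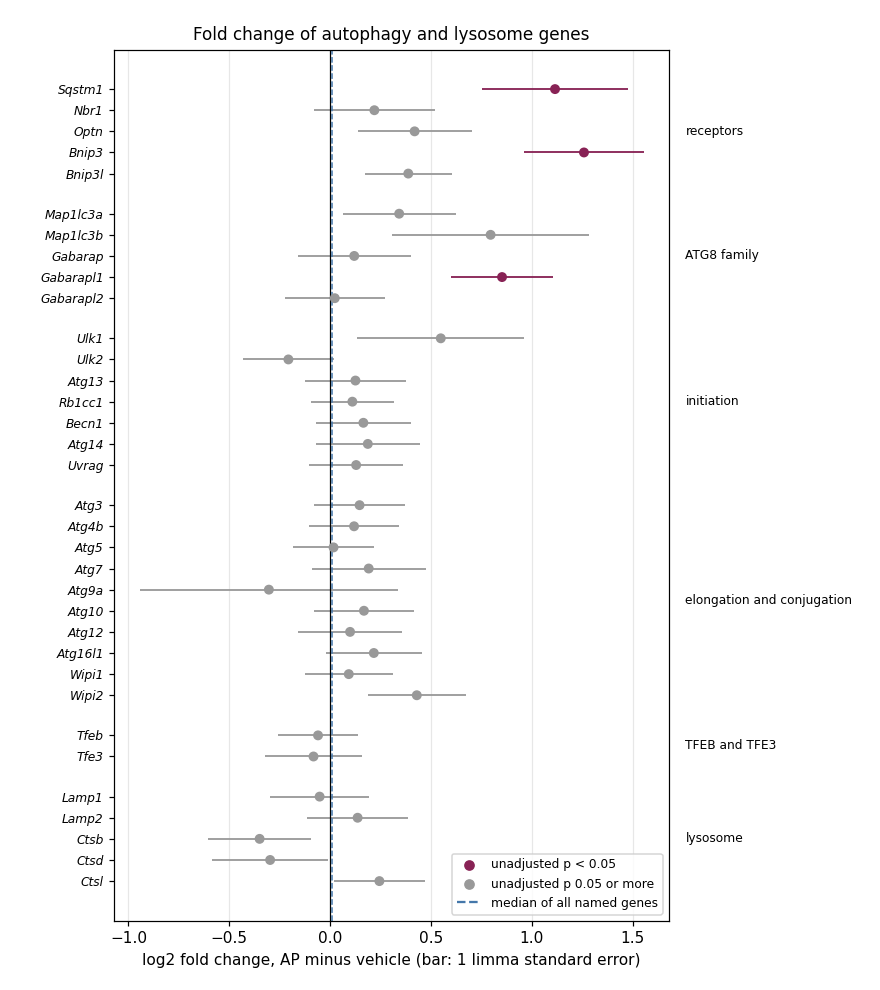
Log2 fold change (AP minus vehicle) of each of the 34 members with 1 limma standard error either side, in rows grouped by role, with a dashed line at the median of all named genes (0.01). Bnip3, Sqstm1 and Gabarapl1 (dark red, unadjusted p under 0.05) lie between 0.85 and 1.26, and the other 31 members lie between −0.35 and 0.79.

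The transcription factor genes did not follow the receptors. Tfeb was at −0.11, −0.05, −0.11 and −0.17, a log2 fold change of −0.06 (standard error 0.20), and although both AP-treated mice were below both vehicle-treated mice, the whole range was 0.12. Tfe3 was at 3.67, 3.47, 3.30 and 3.67, a log2 fold change of −0.08 (standard error 0.24) whose sign turned with the scaling and with the mouse left out (0.0018 with each array's median, 0.02 without vehicle mouse 1 and 0.10 without AP mouse 1). TFEB and TFE3 are controlled largely by phosphorylation and nuclear entry, which an array does not measure.

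The lysosomal members lay on both sides of 0, with 2 of 5 above it, a median of −0.05 and none at an unadjusted p under 0.05. Ctsb, a cysteine protease, was at 8.33, 8.02, 8.02 and 7.64. Both AP-treated mice were below both vehicle-treated mice, though AP mouse 1 and vehicle mouse 2 were equal to 2 decimals, with a log2 fold change of −0.35 (standard error 0.26, limma unadjusted p = 0.236). Ctsl, another cysteine protease, was at 5.66, 5.41, 5.68 and 5.88, with separate groups and a log2 fold change of 0.24 (standard error 0.22). Ctsd, the main aspartic protease, was at 8.25, 7.65, 7.75 and 7.55 and overlapped (−0.30, standard error 0.29). Lamp1 and Lamp2, heavily glycosylated proteins of the lysosomal membrane, had log2 fold changes of −0.05 and 0.14.

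By role, the median log2 fold change was 0.42 for the 5 receptors, 0.14 for the 22 core genes and −0.05 for the 5 lysosomal genes. These are descriptions of small lists, and no test of the difference between roles was made. Relative to the mean of the vehicle-treated mice, the receptor median was 0.26 in AP mouse 1 and 0.64 in AP mouse 2, the core median 0.16 and 0.18, and the lysosomal median 0.00 and −0.11. The receptor value of AP mouse 1 did not exceed that of vehicle mouse 1 (0.27), and the core values of neither AP-treated mouse exceeded that of vehicle mouse 1 (0.19). The order from receptors to core to lysosomal genes was found in all 4 fits with a mouse left out, with medians of 0.26 to 0.64, of 0.00 to 0.35 and of −0.26 to 0.06. The 5 ATG8 genes, counted here within the core, did not keep below the receptors. Their median was 0.34 with all mice and 0.49 without AP mouse 2, where that of the receptors was 0.26.

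**Figure D4:**
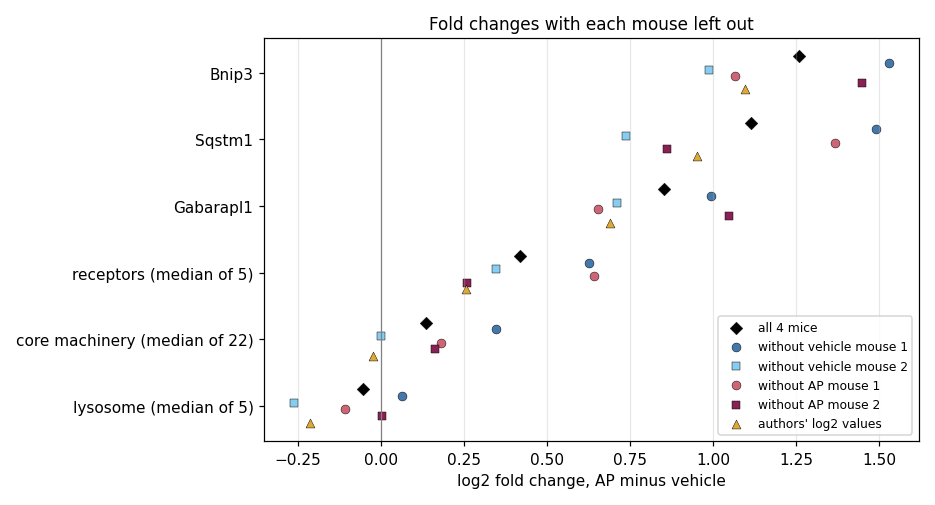
Log2 fold change (AP minus vehicle) of Bnip3, Sqstm1 and Gabarapl1 and the median of the receptors, the core machinery and the lysosomal members, with all 4 mice (black diamonds), with each mouse left out in turn, and in the authors' log2 values (triangles). The 3 single genes stay at 0.65 or above, whereas the core median runs from −0.02 to 0.35.

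Of the members, 12 are, as background, known targets of ATF4 or DDIT3 under amino acid or ER stress: Sqstm1, Nbr1, Map1lc3b, Gabarap, Gabarapl2, Becn1, Atg3, Atg5, Atg7, Atg10, Atg12 and Atg16l1. All 12 were above 0, with a median of 0.17, against 15 of the other 22 members with a median of 0.13. Over the named genes 51.4% were above 0, with a median of 0.01. Without vehicle mouse 2, 4 of the 12 (Sqstm1, Map1lc3b, Atg3 and Atg16l1) were above 0 with a median of −0.02, against 13 of the other 22. The median of the 12 without vehicle mouse 1 was 0.38, where that of the named genes was 0.06. Only Sqstm1 among the 12 had an unadjusted p under 0.05, and Bnip3 and Gabarapl1 were not on that list. Vehicle mouse 2 was the lowest mouse for all 12, and for 13 of the other 22. Trib3, by comparison, had a log2 fold change of 4.57 and Ddit3, which encodes CHOP, one of 1.61.

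A wider list of 100 other genes of the pathway was read in the same fit, and 96 of them were kept. Of these, 55 were above 0 and 41 below, with a median of 0.06, and 2 were higher and 2 lower at an unadjusted p under 0.05 on their brightest probe. Leaving out vehicle mouse 2 put 37 of 96 above 0, with a median of −0.02. Leaving out vehicle mouse 1 instead put 64 of 96 above 0, with a median of 0.19. The groups were separate with AP higher for 20 genes and with AP lower for 13. These shares of 2.08% and 2.08% at the unadjusted p and of 20.8% and 13.5% for separate groups stand beside 3.78%, 2.26%, 20.1% and 17.3% over the named genes.

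The genes higher on that measure were Npc1 and Sgsh. Npc1 encodes the lysosomal membrane protein that exports cholesterol, and was at −0.19, −0.18, 1.02 and 1.14, with gaps of 0.01 and 0.12 within groups. Its log2 fold change was 1.26 (standard error 0.20, limma unadjusted p = 0.00212, adjusted p = 0.80), as large as that of Bnip3. Sgsh, the sulfamidase of heparan sulfate breakdown, was at 7.18, 7.02, 8.48 and 8.03 (log2 fold change 1.16, limma unadjusted p = 0.00757), while its second probe gave 0.28.

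Lysosomal hydrolases were among the genes lower on that measure. Idua, which cuts dermatan and heparan sulfate, was at 4.09, 3.76, 2.77 and 3.34 (log2 fold change −0.87, limma unadjusted p = 0.0356), but its second probe had the opposite sign, 0.09. The next genes by p included hydrolases on both sides of 0. Hexa, a subunit of hexosaminidase, was at 0.80 (0.55 without vehicle mouse 2). The proteases Ctsk and Ctsa were at −0.55 and −0.53 (−0.48 and −0.34 without vehicle mouse 2). The second probe of Ctsa was at −0.19 (standard error 0.30), with overlapping groups. Over all 32 hydrolases 14 were above 0 and 18 below, with a median of −0.11. There were 14 above 0 without vehicle mouse 2 (median −0.053) and 15 without vehicle mouse 1 (median −0.058).

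Within the wider autophagy genes, 24 of 35 were above 0 with a median of 0.14, the same as for the core members, and none had an unadjusted p under 0.05 on its brightest probe. With vehicle mouse 2 left out, 15 of 35 were above 0 and the median was −0.0063. With vehicle mouse 1 left out, 25 of 35 were above 0 and the median was 0.30. The highest was Atg101, which stabilizes ATG13 in the ULK1 complex, at 4.67, 3.95, 4.96 and 5.70 (log2 fold change 1.02, standard error 0.39, limma unadjusted p = 0.0535). It was 0.66 without vehicle mouse 2 (limma unadjusted p = 0.204) and 0.65 without AP mouse 2. Pik3c3, the catalytic subunit of the Beclin 1 complexes, had a log2 fold change of 0.61 and 0.31 on its probes, and 0.39 on the brighter without vehicle mouse 2. Wdr45, a relative of WIPI2, had 0.55 on its brighter probe (0.33 without vehicle mouse 2) and 0.63 on the other (limma unadjusted p = 0.0498). Its relative Wdr45b, looked at after its values were seen, had 0.29 on its brighter probe and 0.69 on the other (limma unadjusted p = 0.0247). The 5 receptors for autophagy of the endoplasmic reticulum on the list, looked at after their values were seen, were Retreg1 at 0.75 (standard error 0.54), Sec62 at 0.44, Tex264 at 0.40, Ccpg1 at 0.32 and Rtn3 at −0.22, and each missed an unadjusted p of 0.05. Without vehicle mouse 2 Retreg1 was at 0.35, Sec62 at 0.19 and Tex264 at 0.065. Separate groups were found for Sec62, Ccpg1 and Rtn3 on their brightest probes. The groups overlapped on the second probes of Sec62 (0.04) and Ccpg1 (0.14).

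The subunits of the V-ATPase, the pump that acidifies the lysosome, had the narrowest range. On their brightest probes, 10 of 15 subunits were above 0, all lay between −0.14 and 0.23, and the median was 0.16. A second probe of Atp6v1a was at −0.24. Vehicle mouse 2 was the lowest mouse for 12 of the 15, and without it 4 of 15 were above 0 and the median was −0.089. Leaving out vehicle mouse 1 instead put 14 of 15 above 0, with a median of 0.26. The other lysosomal membrane and lumen genes split evenly, with 7 of 14 above 0 and a median of 0.04. There were 4 of 14 above 0 without vehicle mouse 2 and 10 of 14 without vehicle mouse 1. Ctss and Laptm5, which are highly expressed in leukocytes and macrophages, had the lowest values of these groups apart from Idua, −0.82 and −0.82, and both were highest in vehicle mouse 2 (3.65 against 0.98 to 1.63 for Ctss, 0.23 against −1.53 to −1.18 for Laptm5), where the leukocyte markers were highest. Without vehicle mouse 2, Ctss was at 0.51 and Laptm5 at −0.057, and without vehicle mouse 1 they were at −2.16 and −1.58. The part of those cells in the 2 values was not tested.

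**Figure D5:**
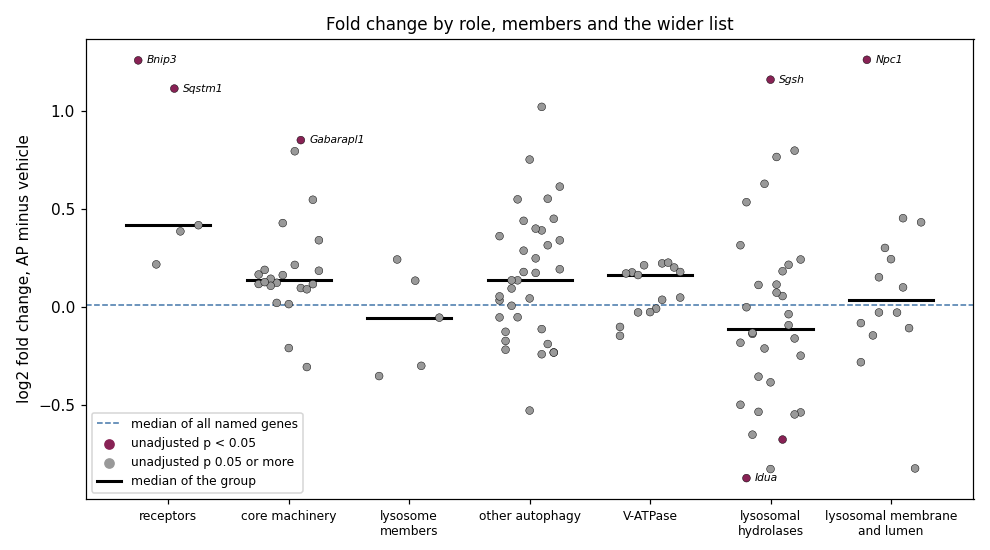
Log2 fold change (AP minus vehicle) of single genes (points) in 3 groups of members and 4 groups of the wider list, with a bar at each group's median and a dashed line at the median of all named genes. The receptor median (0.42) is the highest bar, the hydrolase median (−0.11) the lowest, and the V-ATPase subunits have the narrowest range.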

How the data were processed

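Total RNA of BAT from 4 Tg mice was labelled with Cy3 and hybridized by the authors to one-color Agilent SurePrint G3 Mouse arrays on 1 slide, scanned once. The deposited files hold the intensity of each spot on a linear scale from Feature Extraction 10.7.1.1, background-subtracted and not normalized between arrays. A second deposited table gives the authors' own log2 values, with a centring that is not given in the sources used here (array medians −0.32, −0.18, −0.46 and −0.33). Its differences between arrays correlated with those computed here with r of at least 0.9998 over 24870 probes.

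Control and outlier spots were left out, spots of a probe were averaged, and the 75th percentile of each array was subtracted from log2 of the processed signal. Probes had to be well above background in the 2 mice of either group (24975 of 55681 were kept), and a gene took its brightest kept probe (12791 named genes). No spot was saturated, 46.4 to 49.0% of spots were well above background, and precision is limited by the number of arrays. No value was missing for a member. Replicate arrays correlated across probes with an r of 0.972 (vehicle) and 0.981 (AP). The test was that of limma 3.58.1 (lmFit, eBayes; R 4.3.3), with no trend and no block, and p values were adjusted over all kept probes by Benjamini-Hochberg. The procedure was tested on simulated data. The labels do not say that same-numbered mice form a pair, and the correlation of their deviations was −0.13. In the slide's layout the vehicle arrays are in row 1 and the AP arrays in rows 3 and 4, so that position and treatment cannot be told apart. The array of vehicle mouse 2 was alone in column 2, with the others in column 1. It had the highest 75th percentile of signal (159 against 118 to 128). The part of its position in its values was not tested.

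The members and lists were chosen with earlier results of these data known. Values per mouse are given for members with an unadjusted p under 0.05, then for those with separate groups and an absolute log2 fold change of at least 0.5, then for the member with the largest change in each role. Of the wider list, the 10 genes with the smallest p are named, apart from 1 that is not reported here. Other genes were described after their values were seen. Of the wider list, Map1lc3c has no probe matched here, and Atg4a, Atp6v0d2 and Tpcn2 were not kept.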

Additional observations from a re-analysis of the deposited data

How the results depend on the processing

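No member passed an adjusted p under 0.05 in any of the 15 alternatives (background by normexp with an offset of 50, quantile or median scaling, no or a stricter filter, a variance trend, the authors' log2 values, the mean of a gene's probes, the methods' t-test, a replicate block, a crossed block and each mouse left out). Bnip3, Sqstm1 and Gabarapl1 kept a log2 fold change above 0 in all of them, from 0.99 to 1.53, from 0.74 to 1.49 and from 0.65 to 1.05. The 3 members at an unadjusted limma p under 0.05 became 0 with the methods' t-test. With a mouse left out their number ran from 1 (without vehicle mouse 2, Bnip3) to 4 (without vehicle mouse 1, which added Ulk1), with 2 without AP mouse 1 (Sqstm1 and Bnip3) and 2 without AP mouse 2 (Bnip3 and Gabarapl1). With the replicate block there were again 3 members, Bnip3, Map1lc3b (limma unadjusted p = 0.0369) and Gabarapl1, and Sqstm1 was at 0.0552, while 1226 probes in all were under 0.05. The numbers are not stated to pair the mice. The crossed block, added after the data were seen, gave the same 3 members as the fit without a block, and 1566 probes.

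The number of members above 0, a count added after the data were seen, was 16 with the authors' log2 values and 17 to 30 with a mouse left out, and the core median was −0.025 and 0.00085 to 0.35. Relative to the median of all probes in the same fit, 23 to 29 of 34 members were above it. Of the 34 members, 10 turned sign without vehicle mouse 2, 7 without AP mouse 1, 3 without vehicle mouse 1 and 3 without AP mouse 2. Among the 14 members followed through every alternative, signs turned for Tfe3 (0.0018 with each array's median, −0.27 to 0.10 with a mouse left out), Gabarap (−0.043 with the authors' values, −0.17 to 0.40), Gabarapl2 (−0.14 with the authors' values, −0.20 to 0.25) and Nbr1 (−0.10 to 0.54), and the cause was not tested. The 2 mice a group and the single slide limit all comparisons. A fit with slide or scan as a block was not possible with 1 of each.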
